A study of Rattus norvegicus with 15 samples.

Results

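Bone morphogenetic protein (BMP) signalling was followed through 10 genes. They included the ligands BMP2, BMP4 and BMP7, the intracellular carriers SMAD1 and SMAD5, and the target genes ID1, ID2 and ID3. The others were the secreted antagonist GREM1 and the secreted BMP-binding protein BMPER. These members were 10 of the 17463 genes in the count table and were chosen by name as a pathway. SMAD1, GREM1 and BMPER were chosen on patterns seen in these same counts, so their values are a description and carry no test. All 10 passed the expression filter that left 11665 genes, but GREM1 reached the filter's level of 1.38 CPM (reads scaled to a common library size) in 6 midkine and 2 vehicle libraries, BMPER in 7 and 2, and BMP2 in 7 and 3. The other members reached it in at least 8 midkine and 5 vehicle libraries. Symbols are written as in the table.

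Mammary tumours were induced in Fischer rats with the carcinogen NMU (N-nitroso N-methylurea), and 9 libraries were of the midkine group and 6 of the vehicle group. Midkine, a heparin-binding growth factor, was injected as a protein (300 ug/kg, 3 injections weekly) during the 2 weeks that preceded each of 2 intraperitoneal NMU doses (50 mg/kg), and the labels give no separate schedule, sex or age for vehicle animals. RNA was taken from a small piece of each tumour, poly(A)-selected and sequenced, so all cells of the piece contributed. Titles such as midkine 4-1, 4-2 and 4-3 share a number, which may mean tumours of 1 animal, although the labels leave this unsaid. The p-values thus rest on library-to-library spread, which can include spread inside an animal and technical spread. In bulk tumour RNA, fewer cells of a type and less RNA per cell cannot be told apart.

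BMP ligands are secreted proteins that bring type I and type II receptor kinases together at the cell surface. The activated type I receptor phosphorylates SMAD1 and SMAD5, which join SMAD4, enter the nucleus and switch on targets, of which the ID genes are the best known. ID proteins bind E proteins and keep them and their partners off DNA, while antagonists such as gremlin (GREM1) hold ligands away from receptors. In the mammary gland the pathway acts in branching and in the exchange between epithelium and stroma.

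Among the 7 members not chosen on these counts, the midkine group had the higher fitted level for BMP2, ID1, ID3, ID2 and SMAD5 and the lower for BMP7 and BMP4. None of the 7 passed edgeR's quasi-likelihood test with Benjamini-Hochberg adjustment over all genes at 0.05. That test called 0 of 11665 genes, a background of 0%, with a smallest adjusted p of 0.399. BMP2, ID1 and ID3 had an unadjusted p under 0.05, with higher midkine levels. BMP2 reached the filter's level mainly through midkine libraries, so its p is no support for a difference, and ID1 and ID3 reached it in every library. Over all genes 7.96% had such a p with a higher midkine level and 2.13% with a lower one. DESeq2 called 0 of the 7, with 2 at an unadjusted p under 0.05 (ID1 and ID3), against 92 of 13887 genes called (0.662%). Limma-voom called 0, and the 1 member of the 7 at such a p was BMP2, not ID1 or ID3. For every member the midkine and vehicle libraries overlapped, as they did for all genes tested but 2 (0.0171% without overlap). The median log2 fold change of the 7 was 0.20, beside 0.04 over all genes tested.

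Library totals ran from 4925504 to 8486523 reads counted (median 7252603). Levels below are CPM after scaling by trimmed mean of M-values, and fold changes are log2 of midkine over vehicle with a standard error (SE). Without that scaling the median fold change of all genes stood at -0.10, against 0.04 with it, and no member's direction turned. Libraries also differed in reads of skeletal muscle genes. MYH4, a skeletal muscle myosin, had at most 1 read in midkine 3-1, 3-2, 4-1, 4-2 and 4-3, and more in the other 10 libraries, which are 4 midkine and 6 vehicle. Summed CPM of 8 skeletal muscle markers reached 321549 in midkine 1, beside 33.6 to 3215 in the other midkine libraries and 319 to 747 in vehicle libraries. The MYH4 split did not follow that sum throughout. Midkine 4-1, with 1 MYH4 read, had a sum of 316 CPM, and midkine 6, with 569 reads, had 277 CPM. Where the MYH4 reads of libraries other than midkine 1 came from was not tested. Each comparison was also made in the 10 libraries with MYH4 reads, which keep midkine 1 and hold no midkine library of title numbers 3 and 4. That set is not matched for muscle RNA. A change of value in it cannot be told apart from the loss of those title numbers.

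**Figure D1:**
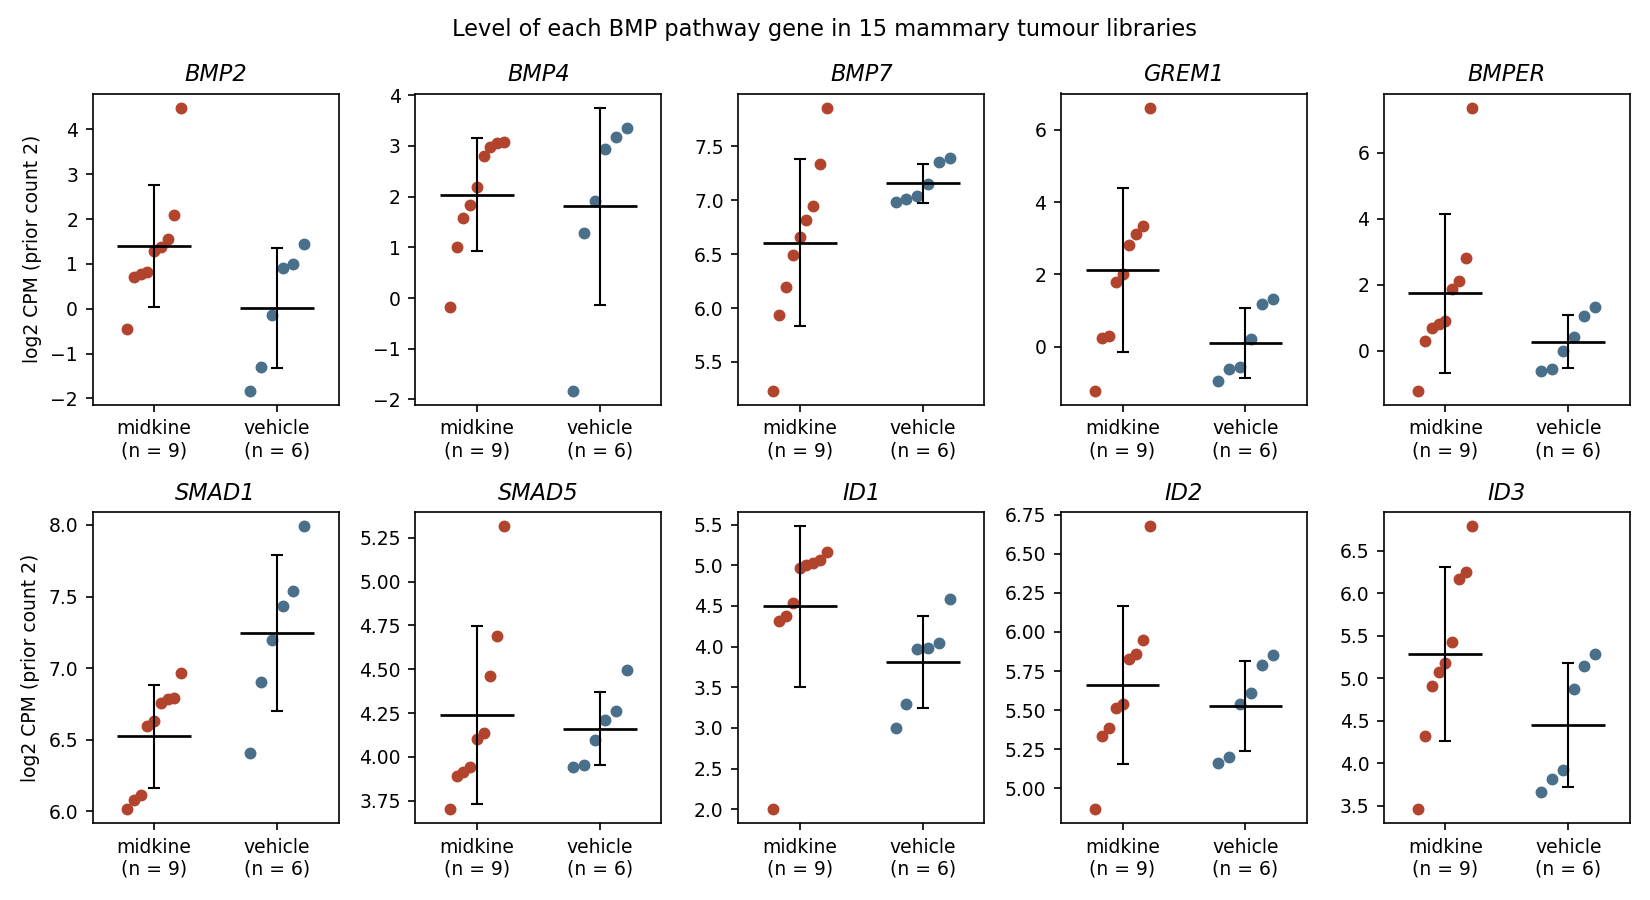
Level of each member as log2 CPM (prior count 2) in 9 midkine and 6 vehicle libraries, with its own vertical axis per gene. Each point is a library, the long line is the group mean and the bar is its standard deviation (SD). Single midkine libraries stand far above the rest for BMP2, GREM1 and BMPER, and by less for SMAD5 and ID2. SMAD1 points of the midkine group lie below most vehicle points.

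BMP2, a ligand made by stromal and epithelial cells, was low in nearly all tumours and high in 1. It had a lowest, median and highest level of 0.447, 2.17 and 22.1 CPM in midkine libraries and of 0, 1.11 and 2.45 CPM in vehicle libraries. The highest value belonged to midkine 3-2, with 181 reads, and the next midkine library, 4-3, had 3.97 CPM. Vehicle 3 had no read, which at its depth allows up to 0.422 CPM (3 counts, counting error only). Only midkine 3-2, 4-2 and 4-3 stood above the highest vehicle library. For BMP2 the fitted log2 fold change was 1.96 (SE 0.89, adjusted p = 0.478), with 8 of 9 midkine libraries above the vehicle median. It was 0.87 (SE 0.65) without midkine 3-2 and 0.35 (SE 0.85) in the 10 libraries with MYH4 reads. Midkine 3-2 alone held 49.8% of all BMP2 CPM of the 15 libraries, where an even spread would give 6.67%.

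BMP4, a ligand close to BMP2 in sequence, had a fold change whose sign depended on single libraries. Its lowest, median and highest levels were 0.596, 4.29 and 8.18 CPM in midkine libraries and 0, 5.42 and 9.96 CPM in vehicle libraries. The groups covered nearly the same range, and vehicle 3, with no read (up to 0.422 CPM), was the lowest of all. For BMP4 the fitted log2 fold change was -0.14 (SE 0.68, adjusted p = 0.968). Its sign turned without midkine 2 (0.011), vehicle 2-1 (0.063) or vehicle 6 (0.14), and without vehicle 3 it was -0.40.

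BMP7, a ligand expressed by many epithelia, was even across vehicle tumours and uneven across midkine tumours. It ranged from 37.4 to 232 CPM with a median of 101 CPM in midkine libraries, and from 126 to 168 CPM with a median of 137 CPM in vehicle libraries. Of the 9 midkine libraries, 7 lay below the lowest vehicle library, while midkine 6 exceeded the highest vehicle level and midkine 2 (161 CPM) fell within that range. The coefficient of variation was 53.0% in the midkine group and 12.7% in the vehicle group, a description without a test. It was larger in the midkine group for every member but BMP4 and SMAD1, as for SMAD5 (42.5% against 15.2%), and was not computed over all genes. For BMP7 the fitted log2 fold change was -0.38 (SE 0.30, adjusted p = 0.727), and it was -0.60 without midkine 6. The lowest BMP7 level was in midkine 1, the library with the muscle RNA given above. Whether that muscle RNA bears on the level was not tested, and without midkine 1 the fold change was -0.26.

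SMAD1 and SMAD5 are receptor-regulated SMADs that carry the BMP signal to the nucleus, and their transcripts had unlike patterns. SMAD1 stood at 67.1, 110, 108, 111, 125, 64.3, 98.7, 68.7 and 96.2 CPM in midkine 1, 2, 3-1, 3-2, 4-1, 4-2, 4-3, 5 and 6. In vehicle 2-1, 2-2, 3, 4, 5 and 6 it stood at 186, 173, 254, 84.5, 146 and 119 CPM. All 9 midkine libraries were below the vehicle median, and the ranges met only through vehicle 4 and vehicle 6, which lay below the highest midkine library, 4-1. SMAD1 averaged 94.2 ± 22.1 CPM in midkine libraries and 160 ± 58.7 CPM in vehicle libraries (SD, n = 9 and 6). For SMAD1 the fitted log2 fold change was -0.77 (SE 0.22). Leaving out 1 library at a time kept it between -0.90 (without vehicle 4) and -0.59 (without vehicle 3), and it was -0.90 (SE 0.29) in the 10 libraries with MYH4 reads. SMAD1 was chosen for this difference, so no test is given.

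SMAD5 did not follow SMAD1. Its lowest, median and highest levels were 12.7, 16.9 and 39.6 CPM in midkine libraries and 15.1, 17.5 and 22.3 CPM in vehicle libraries. Midkine 3-2 was the highest, midkine 4-2 the next at 25.5 CPM, and the other midkine libraries lay within or just below the vehicle range. The fitted log2 fold change was 0.16 (SE 0.24, adjusted p = 0.880), and its sign turned without midkine 3-2 (-0.035, SE 0.17) and in the 10 libraries with MYH4 reads (-0.036, SE 0.19).

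**Figure D2:**
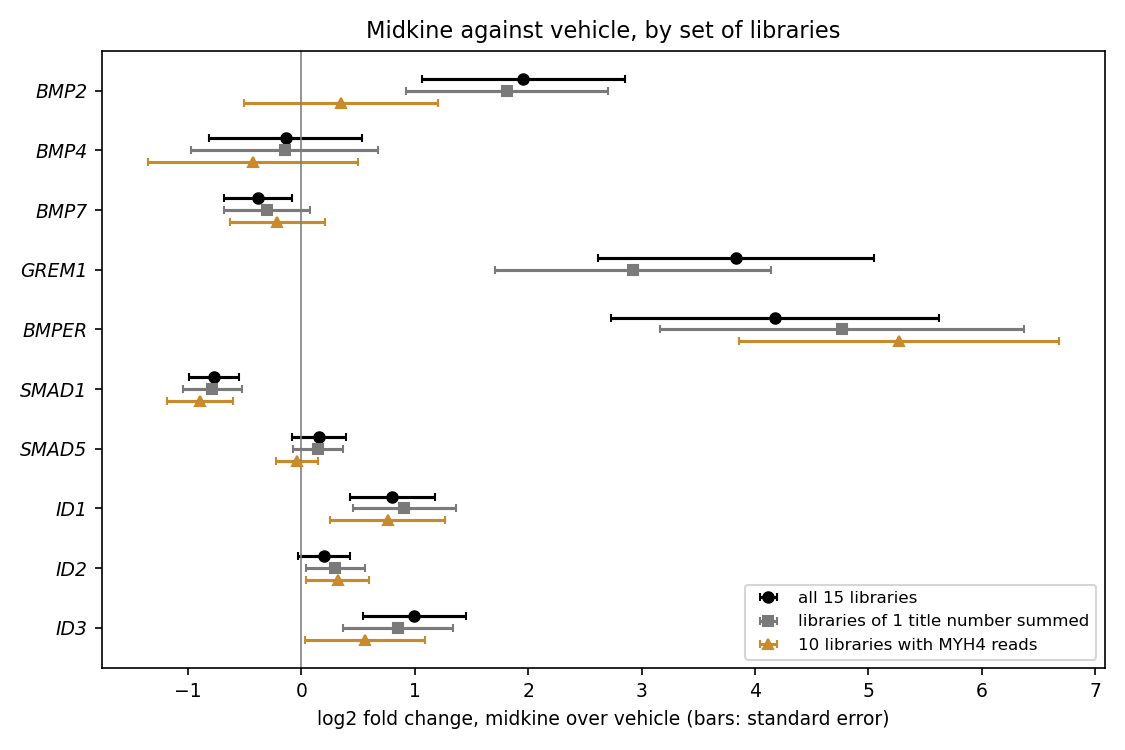
Log2 fold change of midkine over vehicle for each member, with bars of 1 SE, in all 15 libraries (circles), with libraries of 1 title number summed (squares) and in the 10 libraries with MYH4 reads (triangles; GREM1 did not pass the filter there). SMAD1 lies between -0.90 and -0.77 in the 3 sets and ID1 between 0.76 and 0.91, while BMP2 is at 0.35 in the 10 libraries.

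The ID genes encode helix-loop-helix proteins without a DNA-binding region, and ID1 and ID3 had more transcript in the midkine group on average, while the ID2 medians were close. Promoter sequence was looked up for the members in RefSeq's table for the assembly GRCr8, which is not the build of the counts, and 8 of 10 had an entry. The table held none for BMP2 and BMP7. The 3 ID promoters are shown because the levels of ID1 and ID3 were correlated across libraries, while no correlation of ID2 with either passed the test. The stretches are the 250 bases upstream of the annotated start, 5′ to 3′ on the strand of the gene, at chr3:161671314-161671563 (plus strand) for ID1, chr5:153656041-153656290 (plus strand) for ID3 and chr6:47470996-47471245 (minus strand) for ID2. Capitals mark TATAA or its reverse complement TTATA, which overlap in ID1.
ID1: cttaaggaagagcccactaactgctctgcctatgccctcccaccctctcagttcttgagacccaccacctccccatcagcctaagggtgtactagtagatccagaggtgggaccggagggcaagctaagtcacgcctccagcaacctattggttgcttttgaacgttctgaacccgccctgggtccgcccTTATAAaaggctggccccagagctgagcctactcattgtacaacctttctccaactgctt
ID3: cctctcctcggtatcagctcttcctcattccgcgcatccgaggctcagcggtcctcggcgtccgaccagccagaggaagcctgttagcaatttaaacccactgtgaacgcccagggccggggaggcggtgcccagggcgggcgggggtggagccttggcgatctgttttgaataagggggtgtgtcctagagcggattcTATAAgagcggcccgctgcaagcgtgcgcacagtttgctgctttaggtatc
ID2: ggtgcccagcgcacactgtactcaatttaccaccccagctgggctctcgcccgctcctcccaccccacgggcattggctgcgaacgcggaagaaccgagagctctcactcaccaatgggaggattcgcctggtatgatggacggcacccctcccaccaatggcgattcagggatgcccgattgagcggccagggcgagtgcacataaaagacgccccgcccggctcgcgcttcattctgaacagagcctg
TATAA on either strand was found in 3 of the 8 member promoters. It began 59 bases upstream of the start in ID1 and 51 in ID3 on the gene's strand, and TTATA began 17 bases upstream in BMP4. It occurs in 23.97% of all 33469 promoters of this length. GGCGCC, a palindrome bound by SMAD1 and SMAD5 in published work on other targets, was found in GREM1 (91 bases upstream) and BMPER (136 bases upstream), and it occurs in 8.70% of all promoters. CAGAC or its reverse complement GTCTG, a SMAD-binding element, was found in BMP4 and occurs in 42.9%. These are matches of letters and no measure of binding. Only exact matches within the 250 bases were looked for, so near matches and sites farther away were missed. Whether any match bears on the levels or their correlation was not tested.

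ID1 stood at 3.73, 31.0 and 35.5 CPM (lowest, median and highest) in midkine libraries and at 7.74, 15.4 and 23.6 CPM in vehicle libraries. The midkine median lay above the highest vehicle library, vehicle 2-2, as did 5 of the 9 midkine libraries, while midkine 2 lay below all vehicle libraries. ID1 averaged 25.6 ± 10.1 CPM in midkine libraries and 14.6 ± 5.61 CPM in vehicle libraries (SD, n = 9 and 6). For ID1 the fitted log2 fold change was 0.80 (SE 0.37), with an adjusted p of 0.488 from edgeR. Leaving out 1 library at a time gave 0.67 to 0.99, the 10 libraries with MYH4 reads gave 0.76 (SE 0.51), and libraries summed by title number gave 0.91 (SE 0.46).

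ID3 spread more widely than ID1. Its lowest, median and highest levels were 10.7, 36.1 and 110 CPM in midkine libraries and 12.4, 21.9 and 38.7 CPM in vehicle libraries. Midkine 4-2, 5 and 3-2 were the highest at 110, 75.5 and 71.8 CPM, midkine 4-1 was the other library above all vehicle libraries, and midkine 2 was the lowest of the 15. The fitted log2 fold change was 1.00 (SE 0.45, adjusted p = 0.477). It was 0.74 (SE 0.42) without midkine 4-2 and 0.56 (SE 0.53) in the 10 libraries with MYH4 reads.

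ID2, which in the mammary gland is known for a role in alveolar differentiation, stood at 28.9, 46.2 and 102 CPM (lowest, median and highest) in midkine libraries and at 35.5, 47.4 and 57.4 CPM in vehicle libraries. The medians were nearly equal, and only midkine 5 was far from the rest. For ID2 the fitted log2 fold change was 0.20 (SE 0.23, adjusted p = 0.832), and it was 0.026 (SE 0.18) without midkine 5, 0.13 without vehicle 6 and 0.32 (SE 0.28) in the 10 libraries with MYH4 reads.

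GREM1 and BMPER, the secreted BMP-binding proteins, each had their highest level in a single and different midkine tumour. GREM1, which binds BMP2, BMP4 and BMP7, stood at 0.952, 0.149, 8.36, 3.79, 9.94, 97.9, 6.70, 0.891 and 3.17 CPM in midkine 1, 2, 3-1, 3-2, 4-1, 4-2, 4-3, 5 and 6. In vehicle 2-1, 2-2, 3, 4, 5 and 6 it stood at 0.373, 0.234, 1.97, 0.881, 0.396 and 2.23 CPM. All 5 midkine libraries of title numbers 3 and 4, together with that of number 6, exceeded every vehicle library, and midkine 2 was below all of them. The 5 libraries of title numbers 3 and 4 are also those with at most 1 MYH4 read, and the part of that difference in GREM1 was not tested. Midkine 4-2 gave 814 reads and 71.0% of all GREM1 CPM, and the vehicle libraries gave 2 to 17 reads each. For GREM1 the fitted log2 fold change was 3.83 (SE 1.22), and it was 2.05 (SE 0.78) without midkine 4-2.

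BMPER, a crossveinless family protein that binds BMPs outside the cell, stood at 6.67, 0.149, 1.31, 4.03, 0.932, 1.56, 3.35, 164 and 1.46 CPM in midkine 1, 2, 3-1, 3-2, 4-1, 4-2, 4-3, 5 and 6. In vehicle 2-1, 2-2, 3, 4, 5 and 6 it stood at 0.373, 2.22, 0.704, 1.76, 0.396 and 1.05 CPM. Midkine 5 was 24.6 times the next library and held 86.3% of all BMPER CPM, from 921 reads. Apart from it, midkine 1, 3-2 and 4-3 lay above every vehicle library. For BMPER the fitted log2 fold change was 4.18 (SE 1.45) in all libraries, 1.12 (SE 0.64) without midkine 5 and 5.27 (SE 1.41) in the 10 libraries with MYH4 reads, which include midkine 5.

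Cell type markers differed between the same libraries. The summed CPM of 10 fibroblast markers was 145044 in midkine 5, where BMPER and ID2 were highest, against 351 to 8352 in the other midkine libraries and 560 to 10919 in vehicle libraries. Of these markers COL1A2 had 0 reads in 4 midkine and 3 vehicle libraries. The summed CPM of 7 T and B cell markers was 1187 in midkine 4-2, where GREM1 and ID3 were highest, against 23.1 to 336 in the other midkine libraries and 21.7 to 72.8 in vehicle libraries. Among these, MS4A1 had 0 reads in 2 midkine and 5 vehicle libraries, and CD79B in 1 and 4. Epithelial markers, 12 in number and at 0 in no library, summed to 13697 CPM in midkine 3-2, where BMP2 and SMAD5 were highest, and to 2868 to 13063 CPM in the other midkine libraries and 6407 to 8978 CPM in vehicle libraries. Macrophage markers, 8 in number and at 0 in no library, summed to 707 CPM in midkine 4-2, against 125 to 462 CPM in the other midkine libraries and 90.1 to 270 CPM in vehicle libraries. Between the groups, every tested fibroblast, endothelial and macrophage marker had a higher fitted level in the midkine group (9, 9 and 8 genes). So had every T and B cell, adipocyte and skeletal muscle marker tested (5, 3 and 8). The skeletal muscle sum, though, had a median of 277 CPM in midkine and 470 CPM in vehicle libraries. A lower level was fitted for 9 of 12 epithelial and 8 of 10 basal and myoepithelial markers. None passed the test, and over all genes tested 6494 of 11665 were higher. What part these cell types have in the members' levels was not tested.

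The lowest levels gathered in a pair of libraries. Midkine 2 was the lowest midkine library for 6 of the 10 members, namely BMP2, BMP4, ID1, ID3, GREM1 and BMPER. Vehicle 3 was the lowest vehicle library for 5, namely BMP2, BMP4, BMP7, ID1 and ID3. Midkine 2 had the lowest fibroblast marker sum of the 15 libraries (351 CPM) and the highest sum of 10 basal and myoepithelial markers (18970 CPM). Vehicle 3 had sums of 1506 and 12806 CPM for the same lists. The highest midkine levels were spread over more libraries, with midkine 3-2 highest for 4 members (BMP2, BMP4, SMAD5 and ID1).

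Of the 45 pairs of members, the 21 without SMAD1, GREM1 or BMPER were tested for correlation of log2 CPM across the 15 libraries, with 2-sided permutation tests of 100000 resamples adjusted over the 21. By Pearson's r, ID1 and ID3 had the closest relation among them, at 0.77 (p = 0.00049, adjusted p = 0.0103) and a Spearman rho of 0.73 (p = 0.00292, adjusted p = 0.0318) by permutation. Their r was 0.73 within midkine libraries and 0.72 within vehicle libraries, 0.66 without the 2 libraries farthest from the median of ID1, and 0.74 in the 10 libraries with MYH4 reads. BMP2 and ID3 had an r of 0.69 (p = 0.00366, adjusted p = 0.0384) and a rho of 0.68 (p = 0.00724, adjusted p = 0.0380) by permutation, with an r of 0.62 within each group and 0.60 without the 2 farthest libraries. These are the 2 pairs that passed by r. BMP2 reached the filter's level mainly through midkine libraries and had 0 to 21 reads in vehicle libraries. As in the group test, the p-values of its pairs are therefore no support on their own. By rho, BMP2 with ID1 and BMP4 with SMAD5 also passed the adjusted permutation test, with rho 0.69 and 0.73 (adjusted p = 0.0380 and 0.0318), while their r of 0.63 and 0.53 did not (adjusted p = 0.100 and 0.157). ID2 had an r of 0.23 with ID1 and 0.42 with ID3 (adjusted permutation p = 0.444 and 0.215). Libraries that share a title number may not be independent, and with them summed to 11 the permutation tests passed a different set of pairs. ID1 with ID3 passed (r 0.78, adjusted permutation p = 0.0272), BMP2 with ID3 no longer did (r 0.68, adjusted permutation p = 0.0844), and BMP2 with BMP4 (r 0.81) and BMP2 with SMAD5 (r 0.80) did, each at an adjusted permutation p of 0.0272. Over the 15 libraries the last of these pairs leaned on single libraries. The r of BMP2 with BMP4 was 0.52, and 0.26 without vehicle 3. That of BMP2 with SMAD5 was 0.62, and 0.21 without midkine 3-2. Without the 2 libraries farthest from the median of BMP2, each was 0.12. All of these levels share a library's depth and cell makeup. In the 10 libraries with MYH4 reads no pair passed, and without midkine 2 none did, while r of ID1 with ID3 stayed between 0.73 and 0.85 over all 15 leave-outs.

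**Figure D3:**
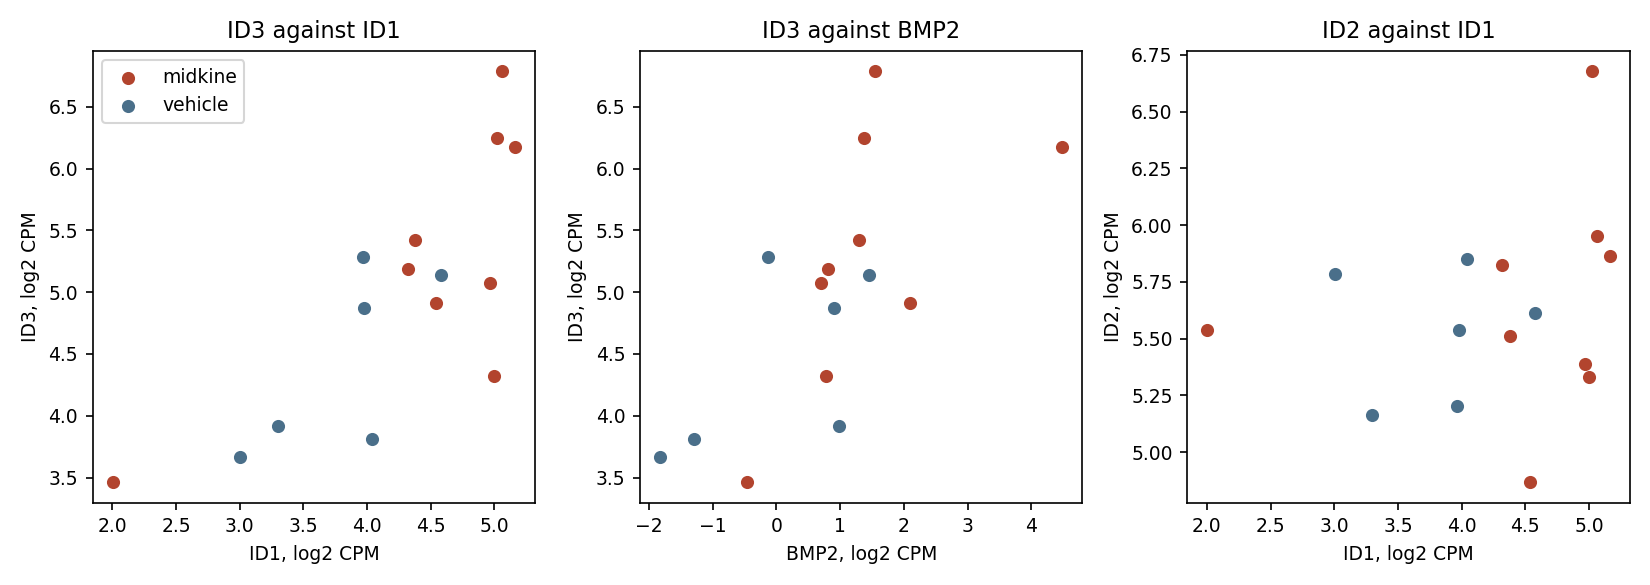
Log2 CPM of ID3 against ID1, of ID3 against BMP2 and of ID2 against ID1, with 1 point per library, midkine and vehicle in separate colours. ID3 is higher where ID1 is higher in both groups (r 0.77 over 15 libraries). For ID2 against ID1 the r is 0.23 and the rho 0.38, neither of which passed. The difference between these correlations was not tested.

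SMAD1 had a negative r with 8 of the other 9 members, given as a description without a test. With SMAD5 and ID2 the r was only -0.16 and -0.05, with a rho of -0.004 and 0.05. Within vehicle libraries the r with ID2 was 0.88, and within midkine libraries the r with BMP2 was 0.10. SMAD1 was chosen for its group difference, which an r over both groups also carries. The r of SMAD1 over the 15 libraries was -0.48 with ID1, -0.56 with ID3 and -0.55 with BMPER. With ID1 it was -0.44 within midkine and -0.23 within vehicle libraries. With BMP7 its r was 0.50 over all libraries, 0.65 within midkine libraries and -0.59 within vehicle libraries. GREM1 and BMPER, the secreted BMP-binding proteins, had an r of 0.03 with each other.

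The genes most like a member over the 15 libraries, by Spearman rho among 11662 genes, were PRAG1 (0.91), CAMSAP2 (0.87) and TMPRSS13 (0.86) for SMAD1. For ID1 they were DCLK1 (0.94), HTRA3 (0.90) and CARD19 (0.90). For GREM1 they were CPXM2 (0.94), CXCL13 (0.91) and GPX3 (0.90), and for BMPER ARHGEF7 (0.90), EHD1 (0.85) and GALNT16 (0.85). These were the highest of many, and a part of such values comes from picking them. Within vehicle libraries alone TMPRSS13 had a rho of 0.94 with SMAD1 and CPXM2 a rho of 0.43 with GREM1, while within midkine libraries they had 0.92 and 0.97.

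The rest of the pathway was read from lists of 74 genes, of which 65 were in the table and 54 were tested. None of the 54 passed, 34 had higher and 20 lower fitted levels in the midkine group, and 2 of the higher and 3 of the lower had an unadjusted p under 0.05, beside 7.96% higher and 2.13% lower over all genes tested. Their median log2 fold change was 0.14, beside 0.04 over all genes. By DESeq2 1 gene of the lists was called, CHRDL1, and 7 had an unadjusted p under 0.05, while limma-voom called 0, with 2 at such a p. Over all genes 1465 had such a p by DESeq2 and 602 by limma-voom. Apart from CHRDL1, the genes named below had the smallest p of their list in this comparison, up to 4 per list. Where their libraries lie beside the other group follows in part from that pick and is a description. How many of all genes have such a placement was not counted.

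Ligands outside the members numbered 4 among those tested, with 2 higher and 2 lower. BMP3, a ligand that can oppose other BMPs, ran from 3.03 to 25.7 CPM with a median of 13.8 CPM in midkine libraries and from 3.53 to 33.1 CPM with a median of 29.5 CPM in vehicle libraries. All midkine libraries were below the vehicle median, and 5 of 6 vehicle libraries were above the highest midkine library, with vehicle 4 the exception. Its log2 fold change was -0.92 (SE 0.47, adjusted p = 0.541). GDF10 had -1.32 (SE 0.73), and -0.61 without vehicle 4. GDF11 had 0.70 (SE 0.51), with 0.13 without midkine 5 and 1.09 without vehicle 4.

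Receptors and co-receptors numbered 10, with 7 higher and 3 lower. ACVRL1, a type I receptor of endothelial cells, ran from 9.69 to 155 CPM with a median of 32.6 CPM in midkine libraries and from 8.44 to 38.4 CPM with a median of 17.8 CPM in vehicle libraries. Its highest value was in midkine 5, which also had the highest sum of 10 endothelial markers, 1111 CPM, against 239 to 845 CPM in the other midkine and 199 to 465 CPM in vehicle libraries. ROBO4, 1 of these markers, had 0 reads in 2 midkine and 2 vehicle libraries. ACVRL1 had a log2 fold change of 1.17 (SE 0.53, adjusted p = 0.478), and of 0.66 without midkine 5. BMPR1B, a type I receptor of epithelia, had -0.83 (SE 0.44, adjusted p = 0.555) with all midkine libraries below the vehicle median. HJV, a BMP co-receptor of muscle and liver, reached 3531 CPM in midkine 1, beside 0.311 to 24.9 CPM in the other midkine libraries and 2.36 to 7.33 CPM in vehicle libraries. Its log2 fold change was 6.55 (SE 2.40, adjusted p = 0.399) with midkine 1 and 0.065 without it.

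**Figure D4:**
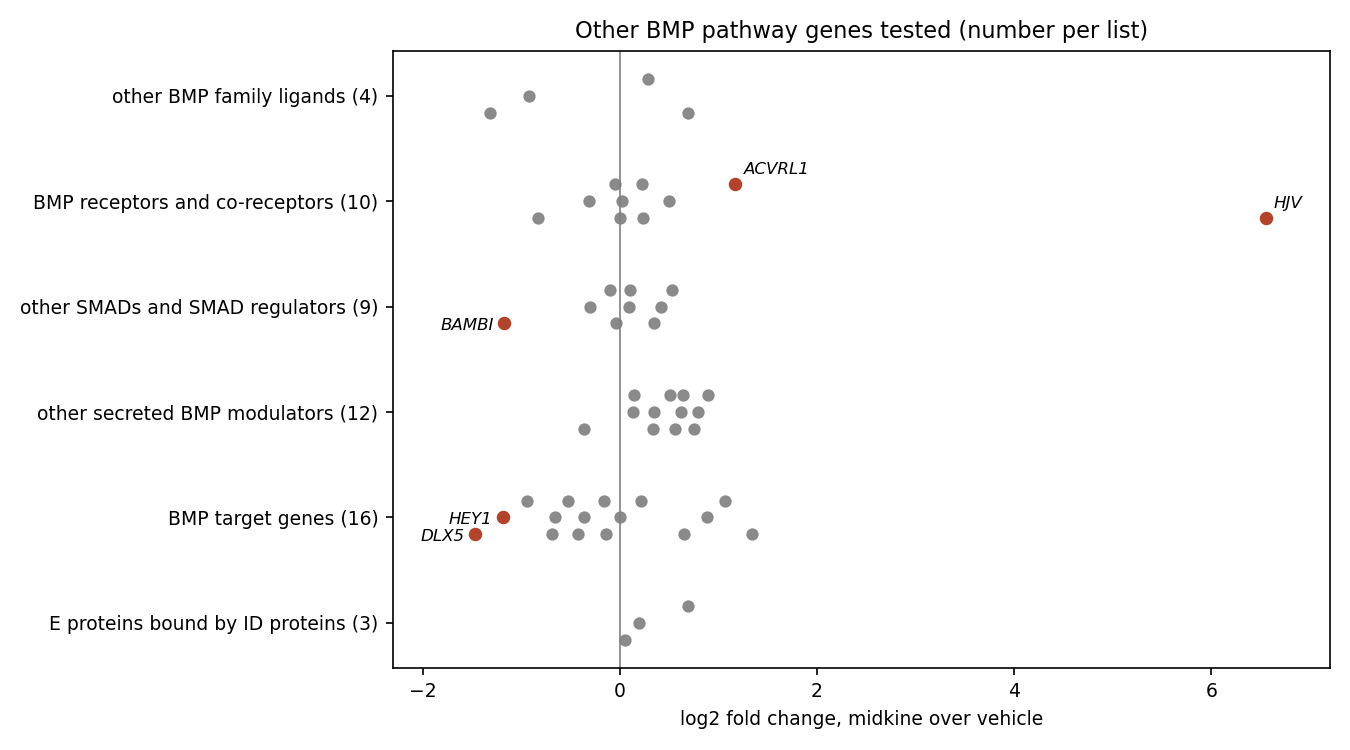
Log2 fold change of midkine over vehicle for the 54 other BMP pathway genes tested, by list, with 1 point per gene and small vertical offsets for legibility. The 5 genes with an unadjusted p under 0.05 are coloured and named, and none passed after adjustment. Of 12 secreted modulators 11 lie to the right of 0, and of 16 target genes 10 lie to the left.

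SMAD regulators and other SMADs numbered 9, with 5 higher and 4 lower. BAMBI, a pseudoreceptor that dampens signalling and is itself a known target of it, ran from 5.48 to 16.4 CPM with a median of 8.78 CPM in midkine libraries and from 5.35 to 32.3 CPM with a median of 24.1 CPM in vehicle libraries. All 9 midkine libraries lay below the vehicle median, 4 of 6 vehicle libraries lay above every midkine library, and vehicle 3 was the lowest of all. The log2 fold change of BAMBI was -1.17 (SE 0.36, adjusted p = 0.399), from -1.37 to -1.01 over the leave-outs. SMAD7, an inhibitory SMAD, had -0.30 (SE 0.26), with -0.14 without vehicle 6, -0.46 without midkine 3-2 and -0.71 (SE 0.28) in the 10 libraries with MYH4 reads.

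Of 12 further secreted modulators tested, 11 had higher fitted levels in the midkine group, with a median log2 fold change of 0.54, and none passed the test. Over all genes tested 6494 of 11665 were higher, with a median of 0.04. Markers of stromal cells had higher fitted levels too, with 9 of 9 fibroblast markers tested (median 1.65), 9 of 9 endothelial (0.81) and 8 of 8 macrophage markers (1.16), and their part in the modulators' levels was not tested. NBL1, BMP1 and FST had 0.64 (SE 0.33), 0.75 (SE 0.39) and 0.89 (SE 0.59). Without midkine 5 NBL1 had 0.40 and BMP1 0.30, and without midkine 3-2 FST had 0.37. CHRDL2, a chordin relative, had 0.79 (SE 0.63), and 0.32 without midkine 1. CHRDL1, also a chordin relative and named because DESeq2 called it, was not kept by the expression filter. It had 68, 7, 4, 22, 4, 129, 16, 13 and 3 reads in midkine 1, 2, 3-1, 3-2, 4-1, 4-2, 4-3, 5 and 6, and 0, 4, 3, 1, 2 and 3 reads in vehicle 2-1, 2-2, 3, 4, 5 and 6. Midkine 1 and 4-2 were the highest, and midkine 3-1, 4-1 and 6 were within the vehicle range of reads. DESeq2 gave CHRDL1 a log2 fold change of 3.98 (SE 0.91, adjusted p = 0.0128). CHRDL1 was picked for this p and had 0 to 4 reads in each vehicle library, so the p is no support for a difference.

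Known target genes outside the members numbered 16, with 6 higher and 10 lower in the midkine group and a median of -0.26. HEY1, a repressor induced by BMP and Notch signals, ran from 1.59 to 9.18 CPM in midkine libraries and from 3.57 to 16.3 CPM in vehicle libraries, with a log2 fold change of -1.18 (SE 0.41, adjusted p = 0.399). DLX5, a homeobox gene, ran from 1.24 to 18.5 CPM in midkine libraries and from 0.704 to 36.3 CPM in vehicle libraries, with -1.47 (SE 0.66, adjusted p = 0.473). For both, all 9 midkine libraries lay below the vehicle median and 4 of 6 vehicle libraries above the highest midkine library. HEY1 and DLX5 were named for a small p in this comparison, so that placement is a description. JUNB had 0.89 (SE 0.47), and 0.27 without midkine 3-2, while MSX1 had 1.34 (SE 0.72), and 0.44 without midkine 5. The E proteins TCF4, TCF12 and TCF3, which ID proteins bind, had 0.69 (SE 0.52), 0.19 (SE 0.29) and 0.06 (SE 0.16). The sign turned for TCF12 without midkine 3-2 (-0.051) and for TCF3 without scaling (-0.057), and TCF4 had 0.042 without midkine 5.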

How the data were processed

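Read counts per gene symbol, whole numbers with no normalization, were deposited for 15 libraries in 1 table, per the file headers. Per the submitters' processing notes the build was rn6. Aligner version, counting mode, strand setting and annotation: not given in the sources used here. Reads of overlapping, antisense or near-identical genes therefore cannot be told apart.

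Libraries were grouped by the treatment label. Analysis used R 4.3.3 and edgeR 4.0.16, with filterByExpr by group, scaling by trimmed mean of M-values (TMM), a quasi-likelihood F test of midkine over vehicle, and Benjamini-Hochberg adjustment over the 11665 genes kept, at a threshold of 0.05. DESeq2 1.42.0 and limma-voom (limma 3.58.1) were alternatives. The gene tests and pair tests were tested on simulated data. CPM are reads over the scaled library size, and log2 CPM have a prior count of 2. No library was a copy of another of its group, since chi-square over degrees of freedom was 19.9 in the closest pair (11181 genes, mean count 20 or more).

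Members and lists were chosen with earlier results of these data known, and some list genes are not reported here. The genes named were the members, up to 4 genes of smallest p from each pathway list, and the 3 genes of highest Spearman rho with each of SMAD1, ID1, GREM1 and BMPER, with mean log2 CPM not below 0. CHRDL1 and MYH4 were named after their values were seen. Total counts of 4925504 to 8486523 set the counting error, which is largest in proportion where few reads were counted, as for BMP2, GREM1 and BMPER.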

Additional observations from a re-analysis of the deposited data

Results flagged for a closer look

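A library was singled out where its gap to the nearest other library of its group was large beside the group's range (Dixon's test, 95% level). Of 66 gene and group pairs, 19 stood apart, 17 of them in midkine libraries. The test's level of 5% assumes normally spread values and independent pairs. CPM are skewed, the same libraries recur, and GREM1 and BMPER were chosen on these counts. No such count was made over all genes, so the 19 are a description and cannot be set against chance. Midkine 5 held 7 of them, with BMPER at 164 CPM, ID2 at 102 CPM, GDF11 at 59.5 CPM, ACVRL1 at 155 CPM, BMP1 at 458 CPM, MSX1 at 112 CPM and TCF4 at 294 CPM, each the highest of its group. Midkine 1 held 3, with HJV at 3531 CPM, PPM1A at 261 CPM and TOB1 at 183 CPM as highest values. Midkine 3-2 held 4, with BMP2 at 22.1 CPM, SMAD5 at 39.6 CPM, JUNB at 1282 CPM and TCF12 at 87.5 CPM as highest values. GREM1 was highest at 97.9 CPM in midkine 4-2, GDF10 was highest at 24.8 CPM in midkine 6, and ID1 was lowest at 3.73 CPM in midkine 2. Among vehicle libraries, BMP3 was lowest at 3.53 CPM in vehicle 4, and TCF3 was highest at 167 CPM in vehicle 6.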

How the results depend on the processing

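Members and 23 other pathway genes were refitted under 23 alternatives. Of 758 log2 fold changes 741 kept their direction and 17 turned. DESeq2 called 92 genes and 1 other pathway gene where edgeR called 0; the cause was not tested. The other alternatives called 0, members included. BMP4 turned with limma-voom (0.51), with the title number as a replicate block (0.018) and among the leave-outs (-0.40 to 0.14). SMAD5 turned in the 10 libraries with MYH4 reads (-0.036) and among the leave-outs (-0.035 to 0.23), as did TCF12 (-0.11, and -0.051 to 0.27). HJV turned with limma-voom (-0.48) and the block (-0.74), and CHRDL2 with the block (-0.029). TOB1 turned with the block (-0.16) and among the leave-outs (-0.10 to 0.53), and TCF3 without scaling (-0.057) and among the leave-outs (-0.0065 to 0.14). Causes were not tested. No pairing of the groups by title number was seen: correlations of deviations were -0.24 to 0.14 over 5 shared numbers, and 0 of 5 vehicle numbers correlated best with their own. That check had no test and could miss a pairing that is weak beside differences in cell makeup. The replicate block called 0 genes, with 323 at an unadjusted p under 0.05 against 1178 without it. Correlated member pairs numbered 2, against 3 with title numbers summed (of which only ID1 with ID3 was shared), 0 in the 10 libraries with MYH4 reads and 0 to 2 among the leave-outs, being 0 without midkine 2, 1 without midkine 3-1, 3-2, 4-1, 5, 6 or vehicle 2-1, 2-2, 3 or 5, and 2 otherwise. GREM1 was not kept by the filter in the 10 libraries. Depth limits BMP2, GREM1 and BMPER, with 0 to 21 reads in vehicle libraries.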
